A study of Homo sapiens with 18 samples.

Results

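Chromosome 8 carried 359 of the 9162 genes measured in rotenone-treated SK-N-MC cells (3.92%), 136 on its short (p) arm and 223 on its long (q) arm, and these genes were examined in order of position over 18 arrays. A chromosome 8 gene was included when a probe set assigned to no other gene reached a signal of 50 on 3 or more arrays. Where a gene had several such probe sets, the one of highest mean was used. This chromosome was selected on the readout, since its genes shifted together between cells treated for 4 weeks with 50 nM and with 5 nM rotenone. That comparison is therefore a description here, as are the 4-week comparisons with vehicle, which use the same arrays.

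SK-N-MC is a human cell line that the labels call a neuroepithelioma and the study a neuroblastoma line. Cells were kept in medium without pyruvate with vehicle (0.05% ethanol, groups 1w0 nM and 4w0 nM), with 5 nM rotenone (1w5 nM and 4w5 nM), called non-lethal in the labels and marginally lethal in the study's text, or with 50 nM rotenone (1w50 nM and 4w50 nM), which killed some of the cells, for 1 or 4 weeks. Rotenone is a pesticide that inhibits complex I of the mitochondrial respiratory chain and destabilizes microtubules. Each of the 6 groups had 3 arrays, and each sample pooled 5 dishes from 1 of 3 experiments, but the labels do not say that a replicate number stands for an experiment, so p-values cover the spread between the samples deposited, which may be technical in part.

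A chromosome arm holds genes of unrelated function that share only their place. In tumour cell lines whole chromosomes or arms can be gained or lost, and the mRNA of the genes they carry then tends to follow the number of copies, while single genes can still be set apart by their own regulation. Chromosome 8 is a frequent site of such gains in the Ewing family of tumours, to which SK-N-MC is usually assigned. Copy number was not measured here, and in bulk RNA a change in the share of cells that carry an alteration cannot be told apart from a change in RNA per cell.

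Replicates 2 and 3 of the 1w0 nM vehicle cells stood apart over these genes. The position of an arm on an array, taken as the median of its genes' log2 signal relative to each gene's mean over the 18 arrays and to the genes of other chromosomes, was 0.42 for the p arm on replicate 2 of the 1w0 nM cells, -0.58 on replicate 3 and 0.04 on replicate 1. For the q arm these positions were 0.22, -0.35 and 0.02. The SD over the 3 arrays was 0.50 for the p arm in 1w0 nM cells and between 0.02 and 0.08 in the other 5 groups. Each count, arm median and named gene of the comparisons with 1w0 nM cells is followed by its value or call without these 2 arrays, a choice made after seeing the data that leaves 1 vehicle array assumed to vary like the other groups. Whether these arrays carry the right labels is in doubt and was not tested, and the labels were kept. A second doubt touches the 1-week doses: group means in a gene list supplied with the study match an exchange of replicate 2 of the 1w5 nM cells and replicate 3 of the 1w50 nM cells, and results that lose their call under that exchange are named below.

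Among the facts of the whole series, the array medians lay between 87.0 and 102, and the correlation between replicates over all 9162 genes was at least 0.967 except for replicate 3 of the 1w0 nM cells, which reached 0.937 and 0.914 with the other 2 arrays of its group. The hybridization controls, added to each sample before the array step, had a mean log2 signal between 8.69 and 9.10 on the 4w5 nM arrays, 8.91 and 9.01 on the 4w50 nM arrays and 9.69 and 10.1 on all others. The 4w5 nM and 4w50 nM arrays thus overlapped in this measure but lay below the vehicle arrays, and its part in the 4-week comparisons with vehicle was not tested. Of 10 markers of Ewing family cells, 8 were above the limit, with CD99 between 2070 and 3470, and of 10 markers of sympathetic neuroblasts 5 were. Of the latter GATA2 (360 to 953), GATA3 (110 to 206) and MYCN (61.6 to 170) were above the limit on every array, DBH and CHGA reached 67.0 and 66.1, and PHOX2A, TH and HAND2 reached at most 30.1. The summed signal of the Ewing markers was 17930 to 19400 in 4w5 nM cells, 11020 to 14740 in 4w50 nM cells and 9461 to 17230 in 1w0 nM cells, so it differed between the 4-week doses without overlap. Fibroblast markers, of which 9 of 10 were above the limit, summed to 4325 to 5080 and 4285 to 4734 in the 4w5 nM and 4w50 nM cells, which overlapped, and to 3972 to 4417 in 1w0 nM cells. In 1w5 nM, 1w50 nM and 4w0 nM cells they summed to 6373 to 6550, 5953 to 6543 and 6253 to 6473, so this sum differed without overlap in both 4-week comparisons with vehicle and in all 3 comparisons with 1w0 nM cells. The sum of the neuroblast markers was also lowest in 1w0 nM cells, at 717 to 873. It was 1070 to 1228, 1056 to 1136 and 1040 to 1178 in 1w5 nM, 1w50 nM and 4w0 nM cells, again without overlap. In 4w5 nM and 4w50 nM cells it was 886 to 1088 and 969 to 1245, overlapping 4w0 nM cells. The Ewing sum was 17750 to 17950 in 4w0 nM cells, above the 4w50 nM and 1w0 nM cells without overlap. A sum is weighted by its brightest markers. Between the 4-week doses 4 of 9 fibroblast markers were called lower with 50 nM and 2 higher, so their overlapping sums hide opposite moves. Of 8 Ewing markers 3 were lower and 0 higher, and of 5 neuroblast markers 1 was lower and 1 higher. Of all genes 7.35% were lower and 10.1% higher. The part of these markers in the results was not tested.

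Both arms lay below 0 on the 4w50 nM arrays and above 0 on the 4w5 nM arrays. The p arm stood at 0.33, 0.37 and 0.48 on the 3 arrays of 4w5 nM cells and at -0.43, -0.44 and -0.37 on those of 4w50 nM cells, and the q arm stood at 0.22, 0.24 and 0.26 and at -0.17, -0.20 and -0.16. Vehicle cells of the same week were close to 0, at 0.02 to 0.06 for the p arm and with a mean of 0.01 for the q arm. The 3 groups of the week did not overlap in either arm, and the p arm lay farther from vehicle than the q arm at both doses.

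**Figure D1:**
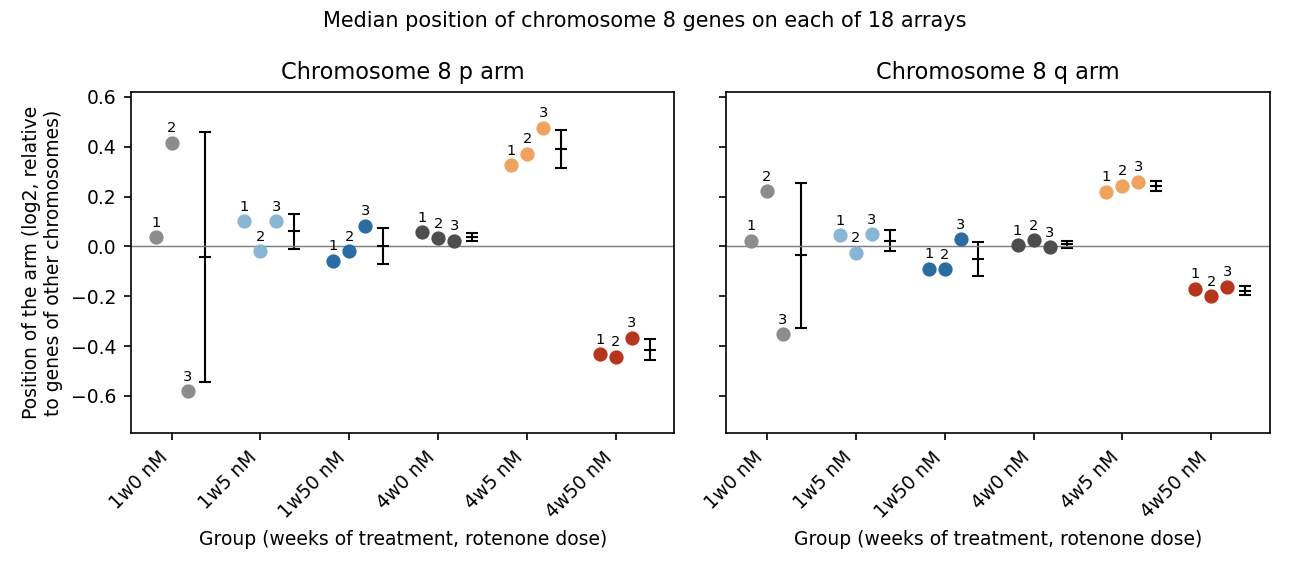
Position of the p arm (136 genes, left) and the q arm (223 genes, right) on each of 18 arrays (log2, y axis) for the 6 groups (x axis); points are arrays with their replicate number, and bars are the mean and SD of 3 arrays. Replicates 2 and 3 of the 1w0 nM cells lie at 0.42 and -0.58 on the p arm, on either side of all other 1-week arrays.

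Between the 4-week doses, 76 of 136 p arm genes were called lower at 50 nM and 1 higher, at an adjusted p below 0.05 in limma, with a median log2 difference (50 nM minus 5 nM) of -0.71. On the q arm 80 of 223 were lower and 7 higher, with a median of -0.42. Over all 9162 genes 7.35% were called lower and 10.1% higher, with a median of 0.01. The unpaired t-test of the study's methods, with the same adjustment, called 25 genes of the chromosome lower and 1 higher. Nothing is read from these shares, since this difference chose the chromosome. Without 1 array of 4w50 nM cells the 156 genes called lower on both arms were 103 (without replicate 1) or 99 (without replicate 2), and the 8 called higher were 5 without replicate 2 of either dose.

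The difference ran along the whole chromosome but was not even. Genes were taken in blocks of 10 neighbours, with 16 and 13 genes in the last block of each arm, and all 13 blocks of the p arm and all 22 of the q arm had a median below 0. On the p arm the medians ran from -1.22, in the blocks from TNKS to CNOT7 and from HMBOX1 to PPP2CB, to -0.29 in the block from SLC18A1 to HR. On the q arm they ran from -0.88, in the block from OPLAH to SLC52A2 near the end of the arm, to -0.02 in the block from PKIA to SNX16. In that last block none of the 10 genes was called lower.

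The genes at the ends of the arms differed by little or by much. The first measured p arm gene, RPL23AP53, a ribosomal protein pseudogene whose probe set may also read related copies, had signals of 45.9 ± 10.1 after 4 weeks at 5 nM and 39.7 ± 3.95 at 50 nM (mean ± SD of 3 arrays here and below). HGSNAT, the last p arm gene, which encodes a lysosomal acetyltransferase, had 478 ± 179 and 208 ± 68.2. SPIDR, a DNA repair scaffold and the first q arm gene, had 179 ± 35.4 and 126 ± 14.6, and C8orf33, the last, had 607 ± 146 and 336 ± 31.2.

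**Figure D2:**
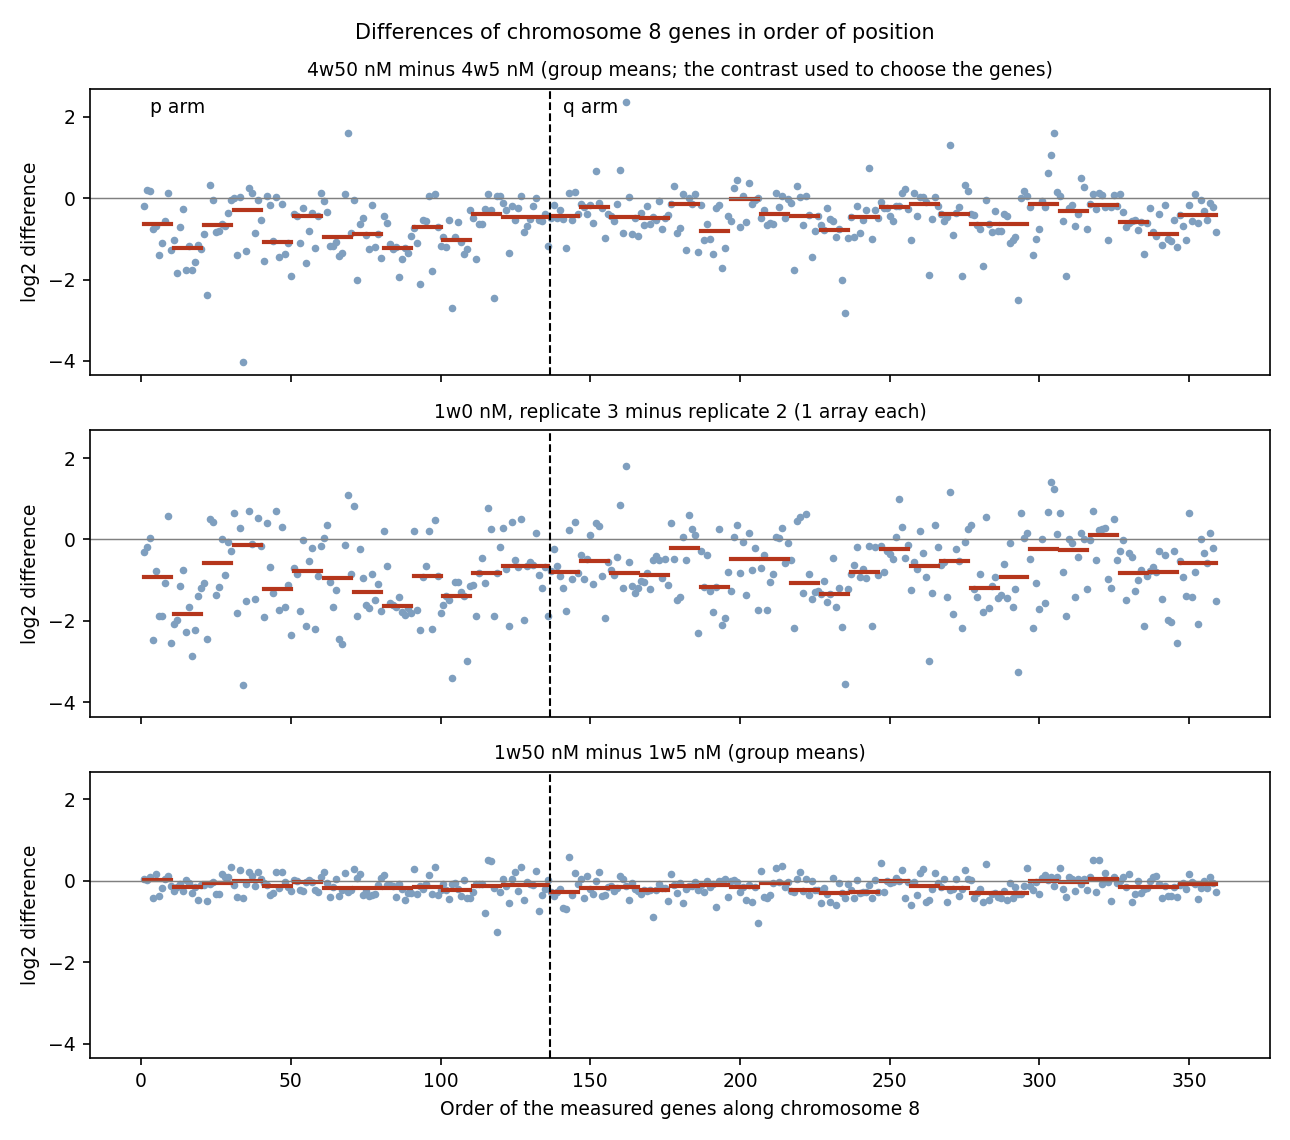
Log2 differences (y axis) of the 359 genes in their order along chromosome 8 (x axis), with points for genes, red lines for the medians of blocks of 10 neighbours and a dashed line between the arms. In the top and middle panels most points lie below 0, with arm medians of -0.71 and -0.42 between the 4-week doses and of -1.07 and -0.69 between replicates 3 and 2 of the 1w0 nM cells, whereas in the bottom panel, 1w50 nM minus 1w5 nM, they are -0.11 and -0.16.

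The 2 vehicle arrays that stood apart share no array with the contrast that chose the genes, and they also differed along both arms. This pair was itself picked for its positions over these genes, so its difference along the arms is a description. From replicate 2 to replicate 3 of the 1w0 nM cells the median log2 difference was -1.07 over the p arm, -0.69 over the q arm and -0.11 over the genes of other chromosomes. Replicate 3 was the lower of the pair for 110 of 136 p arm genes (80.9%) and 173 of 223 q arm genes (77.6%), against 57.9% of the other genes. In the other 5 groups the median difference between any 2 replicates stayed between -0.14 and 0.22 for the p arm and between -0.04 and 0.11 for the q arm.

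Gene by gene, the difference between these vehicle arrays and that between the 4-week doses had Pearson's r of 0.86 across the 136 p arm genes and 0.84 across the 223 q arm genes (Spearman's rank correlation 0.89 and 0.82). The sign was shared by 86.8% and 87.9% of them. Both differences were picked as low over these arms, so nothing is read from this share. Across the 8803 genes of other chromosomes r was 0.73 and 69.7% shared the sign, so the likeness was not particular to chromosome 8. These are correlations across genes of the same arrays, and genes are not independent replicates. Between the dose difference at 1 week (1w50 nM minus 1w5 nM) and that at 4 weeks, r was 0.30 and 0.34 on the arms. Across the genes of other chromosomes it was 0.07.

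Among the 23 chromosomes compared (1 to 22 and X), chromosome 8 had the lowest median in both contrasts. Between the vehicle arrays it was -0.82, followed by chromosome 21 at -0.34, and chromosome 6 was highest at 0.20. Between the 4-week doses it was -0.50, followed by chromosome 22 at -0.14, and chromosome 6 was again highest at 0.29. Between the 1-week doses chromosome 8, at -0.14, was the second lowest after chromosome 4 at -0.16. The 4-week contrast chose this chromosome and the vehicle pair was picked on it, so its ranks in those contrasts are a description.

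**Figure D3:**
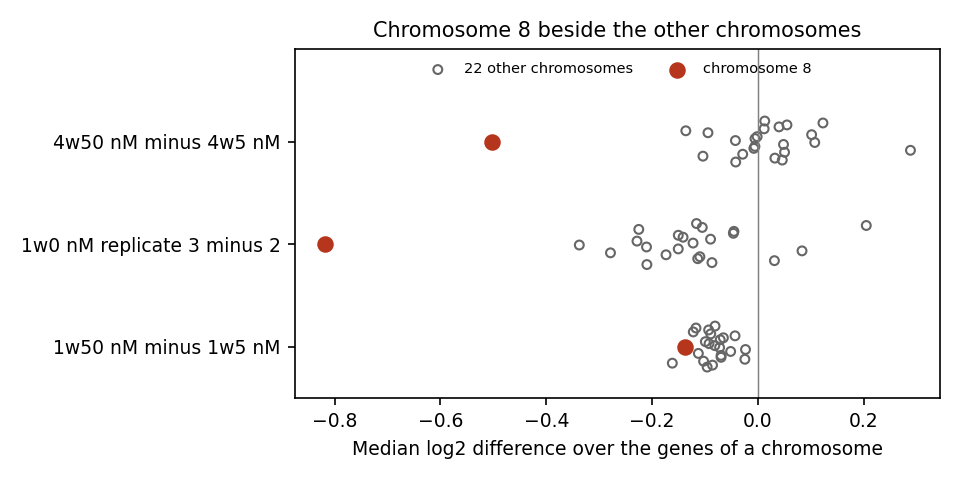
Median log2 difference (x axis) over the genes of chromosome 8 (filled) and of each of 22 other chromosomes (open, spread vertically for legibility) in 3 contrasts. Chromosome 8 lies at -0.50 between the 4-week doses and at -0.82 between 2 vehicle arrays, below every other chromosome in both, and at -0.14 between the 1-week doses.

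**Figure D4:**
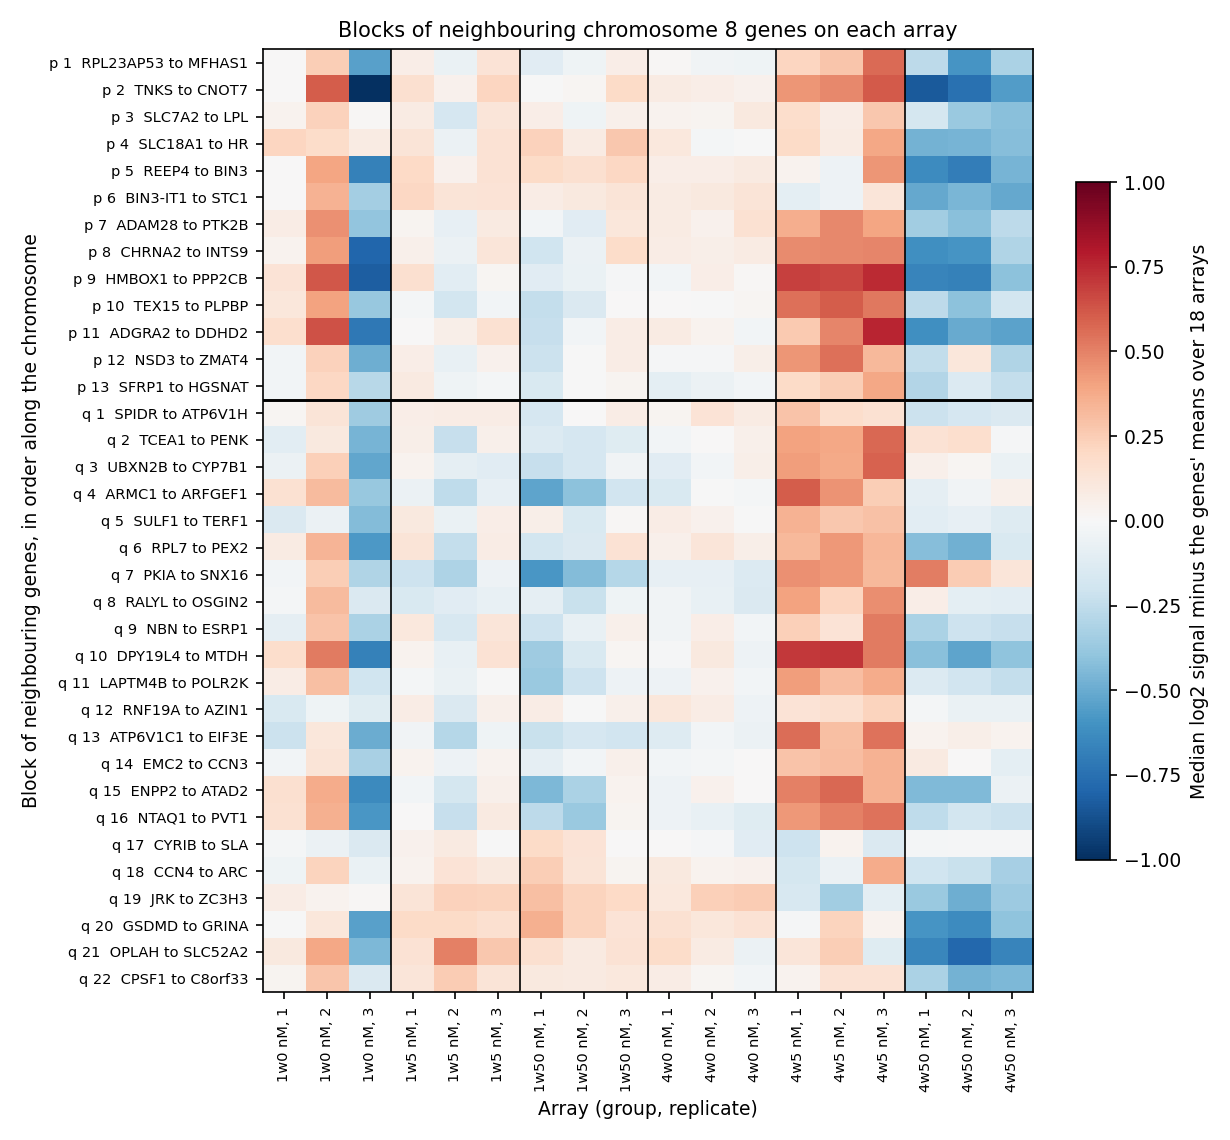
Median log2 signal relative to the genes' means over 18 arrays (colour) for 35 blocks of neighbouring genes (rows, in order from the start of the p arm to the end of the q arm) on each array (columns). Blocks are red on most 4w5 nM arrays and on replicate 2 of the 1w0 nM cells, and blue on most 4w50 nM arrays and on replicate 3 of the 1w0 nM cells.

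GFRA2, the GDNF family receptor that binds neurturin, had the lowest difference on the p arm. Its signals were 504, 591 and 732 in 4w5 nM cells, 26.2, 18.1 and 105 in 4w50 nM cells and 353, 368 and 341 in 4w0 nM cells. The 3 groups did not overlap, and the log2 difference between the doses was -4.03 ± 0.645 (SE). In 1w0 nM cells the signals were 294, 534 and 45.1, so that replicate 3 lay in the range of the 4w50 nM arrays and replicate 2 in that of the 4w5 nM arrays.

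Next lowest on the p arm were ADRB3, a beta adrenergic receptor (-2.69 ± 0.526), IDO1, the tryptophan-degrading dioxygenase (-2.44 ± 0.359), PDGFRL, a PDGF receptor-like protein (-2.38 ± 0.518), and NRG1, the ligand neuregulin 1 (-2.11 ± 0.370). PDGFRL was below the floor of 16 on 1 of the 4w50 nM arrays, so its difference understates the change of signal. It varied among the 4w5 nM arrays, at 120 ± 100. Only those arrays and replicate 2 of the 1w0 nM cells reached the limit of 50. PDGFRL thus became a member through the group where it was high. The NRG1 signals were 282, 303 and 325 at 5 nM and 53.6, 68.0 and 94.0 at 50 nM, without overlap. Other NRG1 probe sets differed by -2.30, -1.21 and -0.63. Between the vehicle arrays these 4 genes differed by -3.41, -1.88, -2.44 and -2.23 in the same order.

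TSPYL5, a nucleosome assembly protein relative (-2.83 ± 0.560), and TRIB1, a pseudokinase that acts in protein degradation (-2.50 ± 0.526), were lowest on the q arm. TRIB1 had signals of 898, 1030 and 1218 in 4w5 nM, 167, 139 and 269 in 4w50 nM and 642, 809 and 792 in 4w0 nM cells. The next were SDC2, a heparan sulfate carrier (-2.01 ± 0.338), KHDRBS3, an RNA-binding protein (-1.92 ± 0.318), and EXT1, which polymerizes heparan sulfate (-1.91 ± 0.346). Other probe sets differed by -1.81 and -0.71 for SDC2 and by -0.47 for EXT1. KHDRBS3 had 20.45, 16.21 and 12.15 in 4w50 nM cells, partly below the floor of 16, so its difference is a bound. Between the vehicle arrays TRIB1 differed by -3.26, with 547, 780.0 and 81.5 on the 3 arrays, and TSPYL5 by -3.56.

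A few genes ran against their neighbours. STMN4, a neuronal regulator of microtubules on the p arm, had signals of 119, 97.3 and 108 in 4w5 nM cells and 293, 272 and 432 in 4w50 nM cells, a log2 difference of 1.60 ± 0.278. The 4w0 nM cells had 566, 546 and 487, above both doses without overlap. MTUS1, a microtubule-associated tumour suppressor (0.33 ± 0.15), and FGF17, a fibroblast growth factor (0.25 ± 0.213), were the other two of the 3 highest on the p arm and were not called.

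CHD7, a chromatin remodeller, was the highest on the q arm, at 95.1, 60.2 and 50.3 after 5 nM and 380, 355 and 290 after 50 nM (2.36 ± 0.328). TG, the thyroglobulin gene, followed at 178 ± 2.59 and 544 ± 87.8 (1.60 ± 0.238), and then SYBU, which links kinesin to axonal cargo, at 120 ± 33.9 and 289 ± 12.7 (1.31 ± 0.223). All 3 were also higher on replicate 3 than on replicate 2 of the 1w0 nM cells, by 1.82, 1.24 and 1.16, as was STMN4 by 1.09. The genes of highest mean signal moved little or moderately: RPL7, a ribosomal protein of the q arm, had 9390 ± 267 and 8371 ± 661, and EIF4EBP1, a translation repressor of the p arm, had 2949 ± 859 and 1479 ± 55.9.

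**Figure D5:**
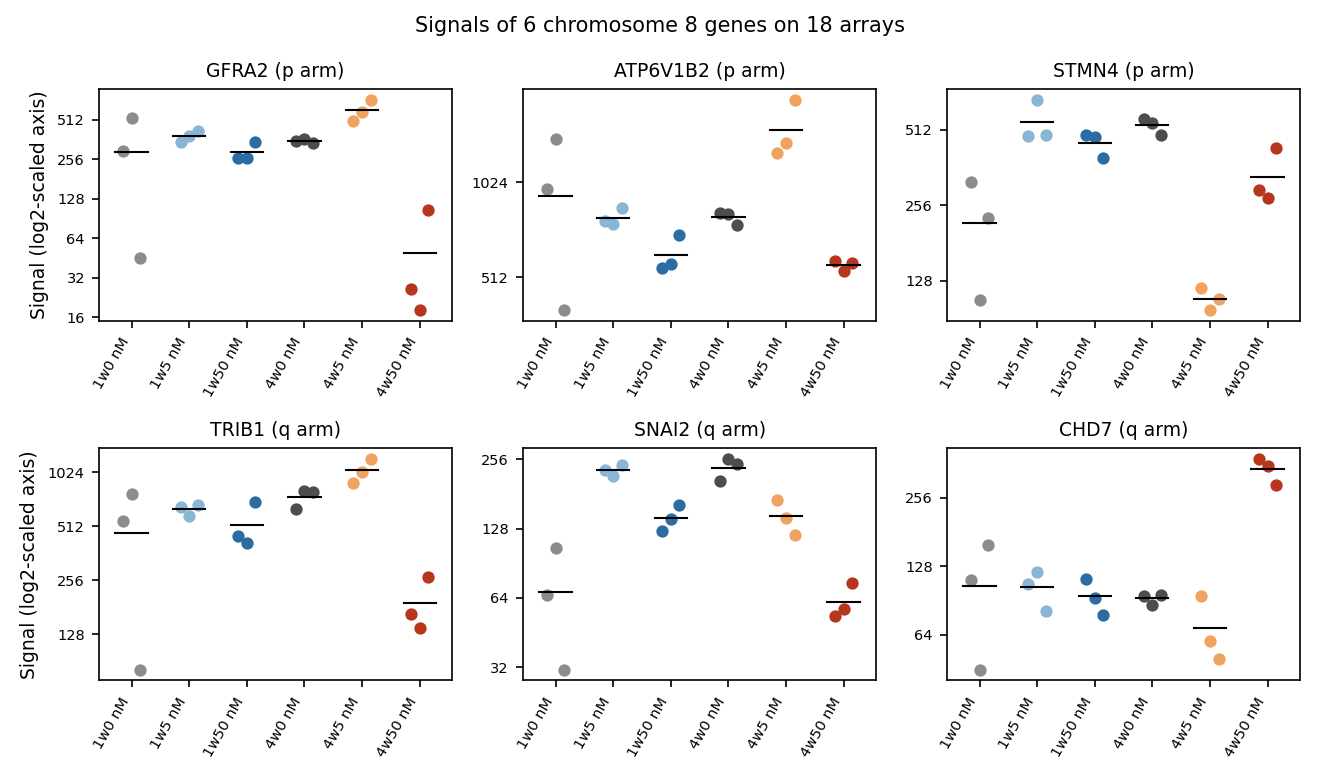
Signals of 6 chromosome 8 genes (log2-scaled y axes) on 18 arrays in 6 groups (x axes); points are arrays and lines are group means. At 4 weeks GFRA2, ATP6V1B2 and TRIB1 are lower with 50 nM than with 5 nM, STMN4 and CHD7 are higher, and SNAI2 is lower in 1w0 nM than in 1w5 nM cells.

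Set against vehicle cells of the same week, the arm medians of the doses lay on opposite sides. In 4w5 nM cells 36 of 136 p arm genes were called higher and 11 lower (median log2 difference 0.43), and 65 of 223 q arm genes higher and 16 lower (0.26), where 18.6% of all genes were called higher and 14.3% lower. In 4w50 nM cells 50 p arm genes were called lower and 6 higher (median -0.42), and 59 q arm genes lower and 27 higher (-0.18), where 17.7% of all genes were called lower and 23.5% higher. The comparisons share the 4w0 nM arrays. Single blocks did not all follow the arm medians. In 4w50 nM cells all 13 p arm blocks but only 14 of 22 q arm blocks had a median below 0. In 4w5 nM cells 2 p arm and 4 q arm blocks did. The block from JRK to ZC3H3 was below vehicle at both doses (-0.31 with 5 nM and -0.46 with 50 nM). That from PKIA to SNX16 was above vehicle at both (0.57 and 0.32).

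On the p arm, 3 genes were highest in 4w5 nM against 4w0 nM cells. PDGFRL had 14.7 ± 6.25 in vehicle cells, where 2 of 3 arrays were below the floor. As said above, it became a member through the 4w5 nM arrays, and nothing is read from its call. WRN, the helicase of Werner syndrome, had 445, 404 and 568 in 4w5 nM, 163, 154 and 163 in 4w0 nM and 271, 194 and 200.3 in 4w50 nM cells. BAG4, an HSP70 cochaperone, had 182 ± 36.1 in 4w5 nM and 62.0 ± 12.2 in 4w0 nM cells. WRN was thus above vehicle on every array of both doses.

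The p arm genes lowest in 4w5 nM against 4w0 nM cells were STMN4, DEFA4, a neutrophil defensin gene (42.1 ± 8.21 and 90.3 ± 9.77), and ZMAT4, a zinc finger gene (75.5 ± 12.0 and 146 ± 6.74). In 4w50 nM cells GFRA2 and ADRB3 were lowest against vehicle (-3.27 ± 0.645 and -2.50 ± 0.526), followed by GINS4, a subunit of the replicative helicase (56.2 ± 33.9 and 203 ± 30.7). The 3 highest were FGF17 (1.11 ± 0.213), ADAM9, a membrane protease (535 ± 104 and 283 ± 15.4), and TCIM, a small WNT pathway regulator (69.2 ± 18.9 and 37.6 ± 3.54). FGF17 reached the limit of 50 only on the 4w5 nM and 4w50 nM arrays. It thus became a member through the groups where it was high, and nothing is read from its call.

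Of the q arm genes, HNF4G, a nuclear receptor, SNX16, an endosomal sorting nexin, and PLAG1, a zinc finger oncogene, were highest in 4w5 nM against 4w0 nM cells. HNF4G was below the floor on 2 of the 4w0 nM arrays. It reached the limit of 50 only on the 4w5 nM arrays and on replicate 2 of the 1w0 nM cells. It thus became a member through the group where it was high, and nothing is read from its call. SNX16 had 235 ± 70.2 in 4w5 nM, 230.4 ± 48.8 in 4w50 nM and a mean of 68.7 in 4w0 nM cells, and PLAG1 had 502 ± 71.3, 425 ± 54.3 and 169 ± 16.5 in the same order. Both were called higher than vehicle with either dose, and CYP11B2 was called lower with either (21.9 ± 1.75, 17.5 ± 6.87 and 105 ± 18.8). On the 4w50 nM arrays CYP11B2 had 12.8, 14.3 and 25.4, partly below the floor of 16, so that difference is a bound. CYP11B2 encodes aldosterone synthase and is nearly identical to its neighbour CYP11B1, so the source of its signal is uncertain.

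The other q arm genes called with the lowest differences in 4w5 nM cells were CA8, a carbonic anhydrase relative (50.0 ± 7.61 against 149 ± 3.42), and TONSL, a replication fork repair protein (45.6 ± 14.6 against 87.4 ± 11.6). In 4w50 nM cells CYP11B2, PLEC, the cytolinker plectin (134 ± 26.3 against 590 ± 44.0), and TRIB1 (-2.01 ± 0.526) were lowest. CHD7 (1.88 ± 0.328), SNX16 (1.75 ± 0.328) and OSR2, a zinc finger factor of development (139 ± 21.0 against 47.6 ± 4.68), were highest. RECQL4, a helicase of the q arm, was lower on average with both doses (116 ± 77.8 and 64.6 ± 32.5 against 241 ± 33.0), and its difference was called in 4w50 nM but not in 4w5 nM cells.

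After 1 week the arms did not part by dose with the labels as given. In 1w50 nM against 1w5 nM cells limma called 0 genes of either arm, 0.0109% of all genes as lower and 0% as higher. At an unadjusted p below 0.05, 3 p arm and 19 q arm genes were lower and 1 and 5 higher, against 10.4% and 2.61% of all genes, and the methods' t-test with the same adjustment also called 0. The medians were -0.11 on the p arm and -0.16 on the q arm, and -0.08 over all genes. As labelled, the arm positions overlapped, from -0.02 to 0.10 with 5 nM and from -0.06 to 0.08 with 50 nM for the p arm. The overlap rested on the 2 arrays in doubt. With them exchanged, the p arm stood at 0.08 to 0.10 with 5 nM and -0.06 to -0.02 with 50 nM, without overlap. The q arm then stood at 0.03 to 0.05 and -0.09 to -0.03, also without overlap. Under the exchange limma still called 0 genes of the chromosome, with medians of -0.13 and -0.11 on the arms.

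Against 1w0 nM cells, 5 nM rotenone for 1 week left 4 of 136 p arm and 9 of 223 q arm genes called higher and 0 lower, where 4.98% and 1.62% of all genes were called. The median was 0.12 on both arms and 0.07 over all genes. At an unadjusted p below 0.05, 16 genes of both arms were lower (4.46%, against 7.35% of all genes) and 55 higher (15.3%, against 16.1%). Without replicates 2 and 3 of the 1w0 nM cells 5 genes were called higher and 1 lower, and the medians were 0.02 on the p arm and 0.05 on the q arm. Without replicate 2 alone 52 were higher, and without replicate 3 alone 22 were lower, with p arm medians of 0.32 and -0.12.

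SNAI2, the transcription factor SLUG of the q arm, was higher on all 3 arrays of 1w5 nM cells than on those of 1w0 nM cells. It had signals of 231, 218 and 242 in 1w5 nM cells and 65.9, 106 and 31.2 in 1w0 nM cells, a log2 difference of 1.93 ± 0.289 (adjusted p = 0.000685, limma), and 1.80 (adjusted p = 0.000127, limma) without replicates 2 and 3. RHOBTB2 of the p arm was higher as well, from 63.2, 82.0 and 45.9 to 142, 158 and 170 (1.33 ± 0.192, adjusted p = 0.000440, limma; 1.31 and 0.00308 without those arrays). Neither gene overlapped between the groups. Vehicle cells at 4 weeks had SNAI2 signals of 206, 258 and 244 and RHOBTB2 signals of 163, 167 and 170. These lay in or close to the range of the 1w5 nM cells, so the 1w0 nM cells were the low group. They were also the low group in the sums of the fibroblast and neuroblast markers. The part of those markers was not tested.

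STMN4 and ZMAT4 were higher by 1.46 and 0.94 in the same comparison. Without the 2 arrays STMN4 was at 0.78 with adjusted p = 0.0993 (limma) and ZMAT4 at 0.81 with adjusted p = 0.0259 (limma). Among q arm genes COLEC10, a collectin (1.06), LACTB2, a mitochondrial endoribonuclease (0.97), and ASAP1-IT1, a transcript within ASAP1 (0.99), were called, and of these LACTB2 was still called without the 2 arrays. The probe set of ASAP1-IT1 could also read ASAP1.

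With 50 nM rotenone for 1 week, 5 p arm genes were called higher and 5 lower, and 13 and 18 q arm genes, where 8.75% of all genes were called higher and 11.3% lower. The medians were 0.08 and 0.04, and 0.02 over all genes. Without both arrays 37 genes of the chromosome were called lower and 12 higher, and the medians were -0.06 on the p arm and -0.07 on the q arm. Without replicate 3 alone 116 were called lower, and without replicate 2 alone 37 were higher and 7 lower.

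THAP1, a zinc finger factor of the p arm, fell with 50 nM rotenone at 1 week, from 242, 226 and 124 to 66.5, 83.7 and 97.4, without overlap (-1.21 ± 0.204, adjusted p = 0.000838, limma). Without replicates 2 and 3 the difference was -1.57, which rests on replicate 1, the highest of the 3 vehicle arrays. The 1w5 nM cells had 138, 116 and 155, above the 1w50 nM cells but below replicates 1 and 2 of the 1w0 nM cells. Part of the fall thus lay in high 1w0 nM arrays. At 4 weeks THAP1 stood the other way, at 341, 343 and 320 with 5 nM and 230, 247 and 217 with 50 nM against 143, 157 and 129 in vehicle cells. ADAM9 (-0.78), NSD3, a histone methyltransferase (-0.72), SNX16 (-1.26), ATP6V1C1, a proton pump subunit (-0.89), and PLAG1 (-0.64) fell at 1 week too and were called without the 2 arrays. Of these genes, all but PLAG1 overlapped between 1w50 nM and 1w0 nM cells, through replicate 3 of the 1w0 nM cells. With the 2 arrays of the 1-week doses exchanged, ADAM9 (-0.60, adjusted p = 0.139, limma), SNX16 (-1.04, adjusted p = 0.0710, limma) and PLAG1 (-0.45, adjusted p = 0.145, limma) were not called.

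TCIM (-0.71) and OSR2 (-0.89) fell as well, but lost the call without the 2 vehicle arrays (adjusted p = 0.160 and 0.108, limma) and under the exchange (adjusted p = 0.701 and 0.0881, limma). The genes that rose most with 50 nM at 1 week were RHOBTB2 (1.32), STMN4 (1.20) and CLU, the extracellular chaperone clusterin (0.98), on the p arm and COLEC10 (1.32), SNAI2 (1.24) and ASAP1-IT1 (0.97) on the q arm. STMN4 was not called without the 2 vehicle arrays (0.52, adjusted p = 0.145, limma), whereas RHOBTB2 (1.30), CLU (0.74), COLEC10 (1.37), SNAI2 (1.11) and ASAP1-IT1 (0.84) were. The CLU signals were 175, 172 and 177 in 1w50 nM and 105, 157 and 42.3 in 1w0 nM cells. COLEC10 had 56.2, 70.3 and 58.5 in 1w50 nM cells, against dim signals of 23.7, 25.5 and 24.5 in 1w0 nM cells.

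In vehicle cells, 4 weeks against 1 week left 3 p arm and 9 q arm genes called higher and 0 lower, where 2.88% and 0.72% of all genes were called, with medians of 0.11 on both arms and 0.06 over all genes. At an unadjusted p below 0.05, 10 genes were lower (2.79%, against 5.81% of all genes) and 39 higher (10.9%, against 13.0%). Without both arrays 4 genes were called higher and 1 lower, with medians of -0.01 on the p arm and 0.00 on the q arm, and without replicate 3 alone 18 were lower. SNAI2 rose by 1.97 ± 0.289 (adjusted p = 0.000589, limma), to 206, 258 and 244, and RHOBTB2 by 1.43 ± 0.192 (adjusted p = 0.000241, limma), and both were called without the 2 arrays. STMN4 (1.44), ZMAT4 (0.84), CA8 (1.29) and LACTB2 (0.98) were also higher. Without the 2 arrays STMN4, ZMAT4 and CA8 lost the call, and LACTB2 was at 1.14. LACTB2 was below the limit of 50 on every array of both groups, with 47.0, 37.3 and 39.1 in 4w0 nM cells.

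By function, the genes were sorted into 7 textbook lists. Between the 4-week doses 43.5% of the chromosome's genes were called lower and 2.23% higher, against 7.35% and 10.1% of all genes, and nothing particular to a list is read from its count. Nerve cell genes had 7 of 19 measured called lower at 50 nM than at 5 nM after 4 weeks and 1 higher (STMN4), and a median of -0.21. DPYSL2, a guide of axon growth (2752 ± 223 and 1081 ± 161), and PNMA2, a neuronal antigen (1327 ± 509 and 476 ± 20.9), were lower beside GFRA2 and NRG1. PENK, the enkephalin precursor, was abundant and called lower by a smaller step (4938 ± 526 and 3792 ± 623), and NEFL, a neurofilament subunit, was near the limit (66.1 and 52.7) and not called. The median between vehicle arrays 3 and 2 was -0.13.

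Genes of secreted factors, receptors and kinases had 12 of 31 called lower and 1 higher (median -0.38). FGFR1, a fibroblast growth factor receptor, had 634 ± 141 in 4w5 nM, 228 ± 61.0 in 4w50 nM and a mean of 760 in 4w0 nM cells. Other FGFR1 probe sets differed by -1.24, -0.75, -0.26 and 0.39 between the doses, against -1.49 for the one used. DLC1, a tumour suppressor, TNFRSF10B, a TRAIL receptor, and FZD3, a WNT receptor, were lower by -1.57, -1.09 and -1.21, and on the q arm EXT1, ASAP1, an ARF regulator (-1.40), PTK2, the focal adhesion kinase (-0.69), and LY6E, a membrane-anchored protein (-1.02). RIPK2, a kinase of innate immunity, was at -0.48 and not called. CLU had 213, 162 and 206 with 5 nM and 35.3, 48.7 and 64.6 with 50 nM, without overlap.

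Of 40 transcription and chromatin factors, 16 were called lower and 1 higher (CHD7), with a median of -0.54. On the p arm BRF2, an RNA polymerase III factor (-1.20), ASH2L, a histone methyltransferase subunit (-0.58), and KAT6A, a histone acetyltransferase (-0.53), were lower, and NSD3 (-0.49) and ZNF395 (-0.17) were not called. Another probe set of NSD3 differed by -1.03. Of the q arm, PUF60, a splicing factor (-0.79), ELOC, elongin C (-0.64), and ZNF706 (-0.57) were lower, while TCEA1, an elongation factor (-0.15), was not called. MYC had signals of 2877, 2653 and 4000.4 in 4w5 nM, 3580, 3475 and 3608 in 4w50 nM and 2779, 2522 and 2451 in 4w0 nM cells, so its doses overlapped (0.19).

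DNA replication, repair and mitosis genes had 7 of 17 called lower and 0 higher (median -0.61). TNKS, a poly-ADP-ribose polymerase at telomeres (-1.03), PPP2R2A, a phosphatase subunit (-1.19), POLB, the base excision repair polymerase (-0.68), and TTI2, a chaperone of kinases (-0.56), were lower on the p arm, and PBK, a mitotic kinase (-0.90), was not called. Of the q arm, PRKDC, the DNA-dependent kinase, was lower (-0.48), while MCM4 (-0.30), NBN (-0.11), RAD21 (-0.21) and UBE2V2, a ubiquitin conjugation factor (-0.50), were not called. Other probe sets differed by -0.70, -0.53 and -0.49 for MCM4 and by -0.46 for RAD21. Those of NBN differed by -0.16, -0.13 and -0.05, and those of PRKDC by -0.62 and -0.19. RAD54B, a recombination ATPase, had 487 ± 24.5 and 279 ± 41.5 (-0.81). All 17 genes were lower on replicate 3 than on replicate 2 of the 1w0 nM cells, with a median of -1.30.

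Genes of the ribosome and of translation showed small differences, with 8 of 13 called lower, 0 higher and a median of -0.34. RPL8 (-0.32), RPL30 (-0.19) and PABPC1, the poly(A)-binding protein (-0.24), were lower, and RPL7 (-0.17) was not called. EIF4EBP1 (-0.95) and MAK16, a ribosome assembly factor (-0.52), of the p arm were lower too. Ribosomal protein probe sets can also read processed pseudogenes.

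Among genes of mitochondria and metabolism, 16 of 26 were called lower and 0 higher, with a median of -0.68, the lowest of the 7 lists. The lysosome list was close, at -0.66. By arm the median was -0.64 on the p arm, above the -0.71 of that arm, and -0.72 on the q arm, below its -0.42. Nothing is read from the rank of the list. MSRA, a methionine sulfoxide reductase, had 357 ± 14.4 with 5 nM and 103 ± 30.2 with 50 nM, and GSR, the glutathione reductase, had 784 ± 67.9 and 335 ± 46.5. ASAH1, acid ceramidase (-0.81), and PTDSS1, a phosphatidylserine synthase (-0.76), were lower, while AGPAT5, an acyltransferase (-0.57), and FABP5, a fatty acid carrier (0.37), were not called. Between the vehicle arrays the median was -1.11, and 24 of the 26 were lower on replicate 3.

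Genes of lysosome, trafficking, folding and ubiquitin had 14 of 27 called lower and 0 higher (median -0.66), and 14 were called higher in 4w5 nM than in 4w0 nM cells. ATP6V1B2, a subunit of the proton pump V-ATPase, had 1261, 1356 and 1865 in 4w5 nM, 578, 536 and 570.3 in 4w50 nM and 817, 809 and 749 in 4w0 nM cells, without overlap. CTSB, the protease cathepsin B, was at 1065 ± 312 and 309 ± 63.8 in the 4-week doses, and CHMP7, an ESCRT protein, was at -1.60. Of the q arm, SDCBP, syntenin (-0.55), TRAM1, a translocon protein (-0.73), and LAPTM4B, a lysosomal membrane protein (-0.46), were lower, and RAB11FIP1 of the p arm (-0.54) and BAG4 (-1.24) were not called. The median between the vehicle arrays was -1.18, with 26 of 27 lower on replicate 3.

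Subunits encoded on chromosome 8 were set beside those of the same 11 complexes or families encoded elsewhere. Of the 16 on chromosome 8, 10 were called lower at the higher 4-week dose and 0 higher (median -0.38), and of 70 encoded elsewhere 9 were lower and 7 higher (median -0.03). Of the chromosome's genes 43.5% were lower and 2.23% higher, and of all genes 7.35% and 10.1%. This comparison chose the chromosome, so nothing is read from the difference between subunits and partners. The 3 V-ATPase subunits of chromosome 8 were ATP6V1B2 (-1.39), ATP6V1C1 (-1.02) and ATP6V1H (-0.39), and the 11 others had a median of -0.14 (between -0.86 and 0.19). COPS5 of the COP9 signalosome was at -0.75 and its 8 partners at a median of -0.14, and VDAC3, a mitochondrial channel, was at -0.52 and its 2 relatives at 0.24 and 0.38.

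In respiratory complexes III and IV, UQCRB (-0.56), CYC1 (-0.38) and COX6C (-0.29) of chromosome 8 were lower, and the partners had medians of 0.15 in complex III and 0.26 in complex IV. YWHAZ, a 14-3-3 protein, was at -0.43 with its relatives at a median of -0.24, and EIF3H at -0.37 and EIF3E at -0.18 with eIF3 partners at 0.06. For ATP6V1H, EIF3E, RAD21 of cohesin, NEFL, MCM4 and NBN the difference was not called. No test compared the subunits, since they were chosen with the result known.

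The size of the difference went with the level of the signal. In 3 groups of like size of members by mean log2 signal, the dimmest (up to 6.95) had medians of -0.15 on the p arm and -0.05 on the q arm, the middle group -0.82 and -0.50, and the brightest (from 8.87) -1.11 and -0.55. In the brightest group 37 of 42 p arm and 46 of 78 q arm genes were called lower. The share of all genes at like signal was not counted, and this contrast chose the genes, so nothing is read from these counts. Other probe sets of the same genes that met the limit, which were not used to measure them, had medians of -1.03 on the p arm (69 probe sets of 43 genes, 63 below 0) and -0.53 on the q arm (93 probe sets of 59 genes, 84 below 0).

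The limit on signal decided which genes were read. Of 434 chromosome 8 genes with a probe set of their own, 75 were below it, 32 on the p arm and 43 on the q arm. Judged by their highest-ranking probe set, the genes just outside had a third-highest signal of 49.5 (TPT1P8), 49.6 (ADAMDEC1) and 50.0 (CA1), and those just inside had 50.6 (SOX17), 51.2 (MSC) and 51.2 (NCALD).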

How the data were processed

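Total RNA of each of 18 samples was hybridized to 1 Affymetrix HG-U133A array. The deposited intensities are linear model-based expression indexes per probe set, which the authors normalized and computed in dChip; the normalization method and the dChip version are not given in the sources used here, and no genome build is named. Control probe sets (68 of 22283) were left out. Genes and their order on chromosome 8 were taken from the RefSeq table of GRCh38.p14 through the platform annotation, which gave 19065 probe sets with 1 gene, 1043 with several and 2107 with none. Arms were split in the longest stretch without a listed gene near the middle, between HGSNAT and SPIDR. A floor of 16 was applied before log2 was taken. limma 3.58.1 in R 4.3.3 was fitted to 9162 genes and all 18 arrays with a mean per group and an intensity trend (12 residual and 5.71 prior degrees of freedom), with Benjamini-Hochberg adjustment within each of 7 comparisons, and tested on simulated data. A gene was called at an adjusted p below 0.05. The number of arrays limits the precision, and a gene below 16 in 1 group has only a bound.

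The members, lists and tests were chosen with earlier results of these data known, and several lists hold genes of those results. Genes were named by a rule: in each arm the 5 lowest and 3 highest between the 4-week doses, the 3 largest calls per direction of the other comparisons, the first, last and brightest gene, up to 5 of the brightest genes per list, the subunits of the complexes, and genes the study names as changed. Same-numbered replicates had correlated deviations between -0.28 and 0.32, and 7 of 18 arrays correlated best with their own number, so the numbers were not taken to pair the samples. Alternatives were other floors and filters, a started log, quantile and median scaling, the mean of probe sets, fewer arrays, no trend, a replicate block, the methods' t-test, an exchange of 2 arrays (1w5 nM replicate 2 and 1w50 nM replicate 3), and leaving out arrays; leaving out 2 vehicle arrays was added after seeing the data. Columns of the authors' own comparisons were not used.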

Additional observations from a re-analysis of the deposited data

Results flagged for a closer look

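For 23 of the named genes the difference between 50 nM and 5 nM at 4 weeks differed from that at 1 week by the interaction term in limma (adjusted p below 0.05). The 4-week part of this term is what the chromosome was selected on, so the values are a description. Over all members 38 passed as negative and 6 as positive, 10.6% and 1.67%, against 1.51% and 8.07% of all genes.

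On the p arm the log2 differences of the differences were -3.62 for GFRA2, -2.61 for ADRB3, -2.27 for IDO1, -2.07 for CLU, -1.99 for NRG1, -1.78 for CTSB, -1.67 for MSRA, -1.56 for CHMP7, -0.73 for KAT6A and -0.65 for POLB. On the q arm they were -1.71 for SDC2, -1.70 for EXT1, -1.51 for KHDRBS3, -0.999 for LY6E, -0.80 for PUF60, -0.64 for ELOC, -0.63 for UQCRB and -0.30 for RPL8. Positive values were 1.31 for TCIM, 1.55 for SYBU, 1.73 for TG, 1.86 for STMN4 and 2.49 for CHD7. Between replicates 3 and 2 of the 1w0 nM cells, GFRA2 differed by -3.56 and CHD7 by 1.82, without a difference in dose.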

How the results depend on the processing

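The arm medians between the 4-week doses kept their sign in all alternatives. Of the counts of chromosome 8 genes called, those that moved by over 1.5 times are given here; the causes were not tested unless fewer arrays entered. For 4w50 nM against 4w5 nM, the 8 higher were 5 with no filter on low values, and the methods' t-test, after adjustment, called 25 lower and 1 higher. With only the groups compared in the fit, 158 were higher in 4w5 nM and 50 higher in 4w50 nM cells against 4w0 nM cells, 6 were lower with 50 nM than with 5 nM at 1 week, and against 1w0 nM cells 0 were higher in 1w5 nM, 3 lower and 3 higher in 1w50 nM and 1 higher in 4w0 nM cells. The 0 lower in 1w5 nM than in 1w0 nM cells were 6 with quantile normalization, 7 with median scaling, 2 with the mean of the probe sets and 1 with a floor of 32, no filter, a limit of 100, no trend, the t-test, the exchange of 2 arrays or without both vehicle arrays. In 4w0 nM against 1w0 nM cells the 0 lower were 3 with quantile normalization, 2 with median scaling and 1 without both vehicle arrays. The t-test called 0 higher in 1w5 nM and 4w0 nM and 0 of either direction in 1w50 nM against 1w0 nM cells. Without both vehicle arrays 5, 37 and 4 were higher in 1w5 nM, lower in 1w50 nM and higher in 4w0 nM cells.

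Leaving out 1 array at a time gave 99 to 127 lower and 5 to 9 higher between the 4-week doses; 7 to 52 higher and 0 to 22 lower in 1w5 nM, 8 to 37 higher and 7 to 116 lower in 1w50 nM, and 7 to 28 higher and 0 to 18 lower in 4w0 nM against 1w0 nM cells. The arm medians against 1w0 nM cells turned negative without replicate 3 of the 1w0 nM cells. Without both vehicle arrays those of 1w50 nM turned negative too (-0.06 and -0.07), and those of 4w0 nM were -0.01 and 0.00. With the replicate number as a block, 145 genes were lower and 9 higher between the 4-week doses, and no count moved by over 1.5 times. A gene at the floor on 1 side limits what can be read.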
